A study of Mus musculus with 18 samples.

Results

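Lyz2 and Lyz1 are the mouse genes for lysozyme C, an enzyme that cuts the peptidoglycan of bacterial cell walls. They were taken by symbol, after the Ensembl identifiers of the count table had been matched to GENCODE M21, and are 2 of 55536 genes in that table. Lyz2 had been singled out because it was lower in Q175;Tyrobp-KO than in Q175 microglia, and Lyz1 because it is its near-identical neighbour. Values that come from the Q175 or Q175;Tyrobp-KO samples are therefore given for both genes as a description, with no test.

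RNA was sequenced from striatal cells held on magnetic beads that bind CD11b, an integrin chain found on microglia and on further myeloid cells. The 18 samples of C57BL/6 mice (C57Bl6/J in the study's methods), whose age the labels do not give, comprised 5 WT, 3 Tyrobp-KO, 5 Q175 and 5 Q175;Tyrobp-KO samples. WT mice carried neither alteration. Tyrobp-KO mice lacked both copies of Tyrobp in all cells. Q175 mice were heterozygous for a huntingtin allele with an expanded CAG repeat, a model of Huntington's disease, and had intact Tyrobp. Q175;Tyrobp-KO mice carried both. Females gave 1 of 5 WT, 2 of 3 Tyrobp-KO, 4 of 5 Q175 and 2 of 5 Q175;Tyrobp-KO samples.

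Lysozyme is stored in lysosomes and secretory granules and is made by macrophages, monocytes and neutrophils. In the mouse, Lyz2 is the myeloid form, and its promoter drives the widely used LysM-Cre line. Lyz1 is known as the form of Paneth cells in the small intestine. TYROBP, also called DAP12, is the adaptor through which TREM2 and related receptors signal in microglia.

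Lyz2 (ENSMUSG00000069516) lies on the minus strand of chromosome 10 at 117277331 to 117282321 of GRCm38. Lyz1 (ENSMUSG00000069515) lies next to it on the same strand, at 117287797 to 117292868. Each has 4 exons in 1 annotated transcript, and no other annotated gene overlapped them or lay within 20000 bases of either. The transcripts, 1316 and 1263 bases long, could be aligned over 1262 bases, of which 1211 were identical (96.0%). The 51 differences were not spread evenly. Exon 1 held 14 of them in 166 aligned bases, exon 2 held 6 in 165, exon 4 held 31 in 852, and exon 3, of 79 bases, held none.

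The coding part of exon 1 is shown for both genes because differing bases lie closest together there. It was read from the GENCODE M21 transcripts, 5′ to 3′, with the 14 differing bases of 136 in capitals, from chr10:117282107-117282242 for Lyz2 and chr10:117292703-117292838 for Lyz1.
Lyz2: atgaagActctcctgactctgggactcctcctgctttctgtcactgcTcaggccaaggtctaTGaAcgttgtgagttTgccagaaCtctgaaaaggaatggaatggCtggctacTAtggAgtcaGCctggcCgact
Lyz1: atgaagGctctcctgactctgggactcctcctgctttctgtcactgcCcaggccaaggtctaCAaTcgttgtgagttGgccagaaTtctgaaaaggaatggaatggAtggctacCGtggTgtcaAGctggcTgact

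Exon 3 is shown once because both genes share it in full, at chr10:117278643-117278721 for Lyz2 and chr10:117289119-117289197 for Lyz1. A read that lies within it cannot be given to one gene or the other.
Lyz2 and Lyz1: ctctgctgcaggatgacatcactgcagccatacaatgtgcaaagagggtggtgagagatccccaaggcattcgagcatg

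The longest run of identical bases was 118. Of the 50-base windows of the Lyz1 transcript, 195 of 1214 (16.1%) occurred unchanged in Lyz2. The share was 2.06% (24 of 1164) for 100-base windows, and no window of 125 bases was shared (0 of 1139). Most windows of 50 bases therefore hold a base that tells the genes apart, as the map of differing bases along the Lyz2 transcript shows. The length of the sequenced reads is not given in the sources used here.

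**Figure D1:**
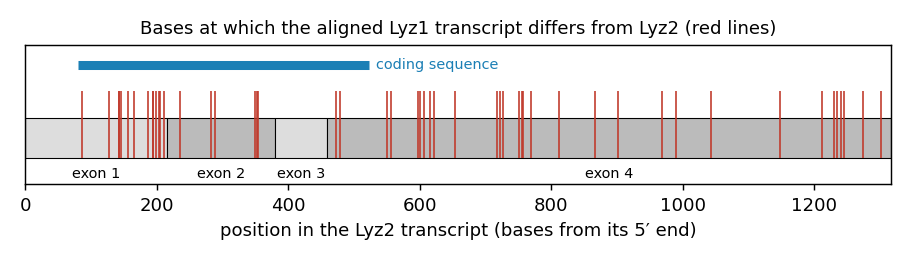
The horizontal axis is the position in the Lyz2 transcript in bases from its 5′ end. Grey boxes are the 4 exons, the blue bar is the coding sequence, and each red line is 1 of the 51 bases at which the aligned Lyz1 transcript differs, with none in exon 3.

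The 100 bases before the annotated start of Lyz2 and the matching bases of Lyz1 are shown because both promoters sit in the same genomic block while their counts differed widely. They come from the RefSeq promoter windows of GRCm38.p6, in which both genes had an entry, at chr10:117282322-117282421 and chr10:117292918-117293017 on the minus strand. Bases that differ position by position, 20 of 100, are in capitals.
Lyz2: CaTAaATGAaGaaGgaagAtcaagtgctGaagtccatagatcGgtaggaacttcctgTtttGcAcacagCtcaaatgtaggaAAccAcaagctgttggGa
Lyz1: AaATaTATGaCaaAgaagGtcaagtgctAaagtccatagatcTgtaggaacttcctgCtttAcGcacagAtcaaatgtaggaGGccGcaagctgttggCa

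Short words were searched in these windows on both strands, chosen after the sequences had been seen. GGAAG, an ETS-type word, was found at 2 places in Lyz2 and 1 in Lyz1, and in 33.8% of 32851 promoter windows of the same length and position. The longer AGGAAG, known from PU.1 sites, lies over the same places. It occurred at 2 places in Lyz2 and 1 in Lyz1, and in 13.2% of windows. GGAACTTCC, which overlaps the reverse-strand AGGAAG that both genes hold, occurred once in each gene and in 0.225% of windows. ACCACA, the core bound by RUNX factors, occurred once in Lyz2 and not in Lyz1, against 5.76% of windows. TTGCNNAA, a C/EBP-type word, occurred in neither, against 3.96% of windows. Such a match describes the letters only.

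Total counts were between 11260410 and 29771983 per sample, so counting error is small for Lyz2 (1913 to 7785 counts per sample) and large for Lyz1 (0 to 7). Gm26917 and Gm42418, 2 genes with ribosomal RNA-like sequence, took from 11.7% (Tyrobp-KO replicate 19) to 29.5% (Q175 replicate 4) of these counts. Over 18 samples, Pearson's r of that percentage with Lyz2 was 0.24. It was -0.36 for the log2 total count and -0.43 for the TMM factor, which scales the library total. All 12 microglia markers were detected in every group, with summed levels of 13537 to 24287 CPM (edgeR CPM units, counts scaled to the library total and its TMM factor). Markers of other cells were present too, with summed levels of 537 to 6184 CPM for 10 astrocyte genes and 1689 to 6089 CPM for 8 oligodendrocyte genes. No library was a copy of another (highest correlation of log2 CPM 0.983), and the labels do not say that each sample came from another mouse, although every group holds both sexes, so p-values measure only the spread between these samples, part of which may be technical. In such bulk RNA, fewer cells that express a gene and less of its RNA per cell cannot be told apart.

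Tyrobp, the deleted gene, was measured first as a check of the labels. Its level was 196 to 475 CPM in WT and 213 to 368 CPM in Q175 samples. It was 17.5 to 21.3 CPM in Tyrobp-KO and 9.89 to 14.6 CPM in Q175;Tyrobp-KO samples. The log2 fold change was -4.10 ± 0.37 (SE, edgeR adjusted p = 0.00406) in Tyrobp-KO against WT and -4.45 ± 0.19 (adjusted p = 2.46e-07) in Q175;Tyrobp-KO against Q175. The groups with and without the gene were far apart, and every library matched the Tyrobp part of its label. The huntingtin allele was not checked.

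Lyz2 was high in all groups. The mean level was 302.5 ± 90.6 CPM in WT, 245 ± 76.3 in Q175, 207 ± 14.2 in Tyrobp-KO and 118 ± 10.8 in Q175;Tyrobp-KO microglia (SD, n = 5, 5, 3 and 5). Per kilobase of exon, Lyz2 ranked between 74th and 259th of 16089 genes with a mean of at least 1 CPM, counted from the most abundant. It stood highest in the WT samples, at ranks 74 to 96, and lowest in the Q175;Tyrobp-KO samples, at ranks 162 to 259.

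In WT, replicates 1, 2, 6, 7 and 8 had 335, 317, 430.4, 218 and 212 CPM of Lyz2. In Q175, replicates 3, 4, 9, 14 and 17 had 213, 269, 131, 281 and 331 CPM. Both groups with intact Tyrobp were wide, with coefficients of variation of 29.9% and 31.1%, and overlapped along most of their range. In Tyrobp-KO, replicates 15, 19 and 20 had 213, 191 and 218 CPM. In Q175;Tyrobp-KO, replicates 5, 11, 12, 13 and 16 had 120, 126, 112, 129 and 103 CPM. The groups without Tyrobp were narrow, with coefficients of variation of 6.85% and 9.14%.

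The 5 Q175;Tyrobp-KO samples lay below all 13 other samples. Of 18613 genes tested over all groups, 4 (0.0215%) lay lower in this way, and because Lyz2 was chosen on these samples its place among them is a description. The nearest other sample was Q175 replicate 9, at 131 CPM, beside 129 CPM in Q175;Tyrobp-KO replicate 13. The 3 other groups overlapped each other. A WT value was above a Q175 value in 17 of 25 pairs, a WT value above a Tyrobp-KO value in 13 of 15, and a Q175 value above a Tyrobp-KO value in 11 of 15.

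**Figure D2:**
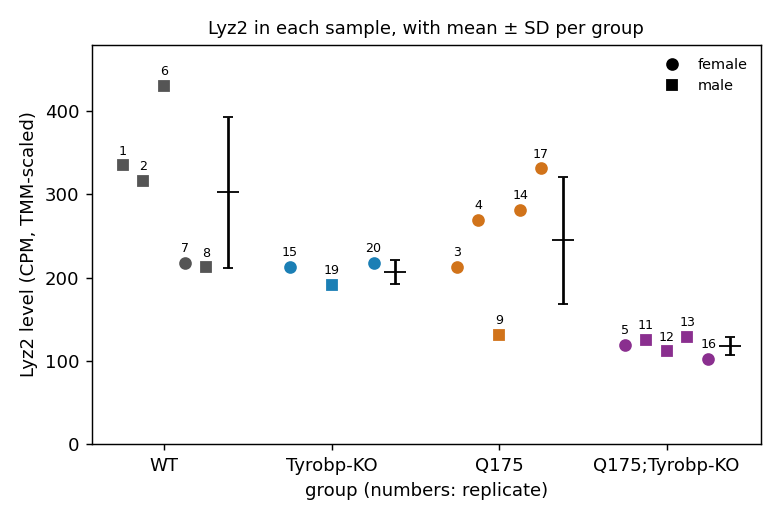
Lyz2 level in CPM (vertical axis) for each sample, by group, with the replicate number above each point, circles for females and squares for males. Black lines give mean ± SD. The 5 Q175;Tyrobp-KO samples sit between 103 and 129 CPM, and the WT and Q175 samples spread from 131 to 430.4 CPM.

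The effect of deleting Tyrobp without the Q175 allele was compared in Tyrobp-KO and WT, samples outside the contrast on which Lyz2 was chosen, although earlier results of all groups were known at the time. The Lyz2 log2 fold change was -0.48 ± 0.26 (SE), a fitted level 28.1% lower in Tyrobp-KO. This did not pass edgeR's quasi-likelihood test with Benjamini-Hochberg adjustment (adjusted p = 0.828, unadjusted p = 0.0954), and 2 WT samples, replicates 7 and 8, lay at 218 and 212 CPM, beside Tyrobp-KO values of 191 to 218 CPM. In this comparison 4 of 18017 genes (0.0222%) passed at an FDR of 0.1, all of them lower: Tyrobp, Clec7a, Spp1 and St8sia6, a sialyltransferase gene. DESeq2 called 80 genes higher and 88 lower.

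The effect of deleting Tyrobp on the Q175 background was compared in Q175;Tyrobp-KO and Q175. The fitted Lyz2 log2 fold change was -1.06 ± 0.21 (SE), a level 52.0% lower. The groups did not overlap, as for 0.36% of 18059 genes that lay lower in this comparison, and only Q175 replicate 9 came near the other group. At an FDR of 0.1, 2 of 18059 genes (0.0111%) passed here, Tyrobp and St8sia6, both lower. For Lyz2, chosen on this contrast, no test result is read from this. The study, which used DESeq2, named Lyz2 among the genes that decreased here.

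The effect of the Q175 allele was compared with and without Tyrobp. With intact Tyrobp, the Lyz2 log2 fold change in Q175 against WT was -0.27 ± 0.27 (SE), as large as its error, and it was -0.12 without WT replicate 6 and -0.45 without Q175 replicate 17. Without Tyrobp, in Q175;Tyrobp-KO against Tyrobp-KO, it was -0.84 ± 0.12 (SE, 44.0% lower), and the groups did not overlap, as for 5.92% of 17723 genes that lay lower there. By edgeR no gene passed in either comparison (0 of 18266 and 0 of 17723, 0%), while DESeq2 called 234 and 680 and the unadjusted p of edgeR was under 0.05 for 1140 and 2343 genes. The difference of both Tyrobp effects, fitted over all 4 groups, was -0.51 ± 0.33 (SE) for Lyz2 on the log2 scale. No gene of 18613 (0%) passed by edgeR for this difference, DESeq2 called 2, and edgeR's unadjusted p was under 0.05 for 1118.

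The sexes were spread unevenly over the groups, and the Lyz2 difference between Q175;Tyrobp-KO and Q175 had different sizes in females and males, a contrast that was not tested. Among females, 2 Q175;Tyrobp-KO samples (103 and 120 CPM) lay below 4 Q175 samples (213 to 331 CPM), a log2 difference of -1.29. Among males, 3 Q175;Tyrobp-KO samples (112 to 129 CPM) lay beside the only Q175 male, replicate 9 (131 CPM), a log2 difference of -0.11. With 1 male in Q175, sex and sample cannot be told apart there. Between Tyrobp-KO and WT, the difference was -0.02 in females (2 against 1 sample) and -0.72 in males (1 against 4). Between Q175;Tyrobp-KO and Tyrobp-KO it was -0.96 in females (2 against 2) and -0.65 in males (3 against 1). Between Q175 and WT it was 0.31 in females (4 against 1) and -1.26 in males (1 against 4), and so of opposite sign. When sex was added to the fit, the Lyz2 log2 fold change was -0.90 ± 0.25 (SE) in Q175;Tyrobp-KO against Q175 and -0.34 ± 0.32 in Tyrobp-KO against WT.

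A further property of the libraries moved with Lyz2. In each sample, the log2 CPM of 10050 genes relative to their means was set against log2 exonic length, and the slope, called the length trend here, says whether long transcripts are over- or under-represented in that library. Lyz2 is short, and 3.10% of genes with a mean of at least 10 CPM are shorter, their median exonic length being 5095 bases. The length trend was low in all 3 Tyrobp-KO samples, between -0.11 and -0.084 log2 CPM per doubling of length. It lay between -0.057 and 0.109 in WT, between -0.097 and 0.158 in Q175, and between -0.0087 and 0.075 in Q175;Tyrobp-KO samples.

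Within WT and within Q175, Lyz2 was low where the trend was high. In WT, replicates 7 and 8 had the highest trends, 0.083 and 0.109, and the lowest Lyz2 levels. In Q175, replicate 9 had the highest trend of all 18 samples, 0.158, and the lowest Lyz2 level of its group, while replicate 17 had the lowest trend, -0.097, and the highest level. Over the 18 samples, Pearson's r of log2 Lyz2 with the trend was -0.45, and -0.84 once group means had been subtracted from both. These values share the library and its scaling, and within Q175;Tyrobp-KO, whose trends span little, r was 0.21 over 5 samples.

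With the length trend as a term, a fit added after the data had been seen, the Lyz2 log2 fold change was -1.01 ± 0.23 (SE) in Tyrobp-KO against WT, more than 2 times that without it, still without passing edgeR's test (adjusted p = 0.255). It was -0.92 ± 0.15 in Q175;Tyrobp-KO against Q175. The difference of both Tyrobp effects turned from -0.51 to 0.09 ± 0.24. Both values are descriptions, the first with an SE of 0.33, so a larger Lyz2 effect on the Q175 background was shown in neither fit. In Q175;Tyrobp-KO against Tyrobp-KO, the value with the trend as a term was -0.96 ± 0.31. The 3 Tyrobp-KO samples have trends outside the ranges of WT and Q175;Tyrobp-KO. Group and trend are thus partly tied in both comparisons that use them, and in the difference of both effects.

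**Figure D3:**
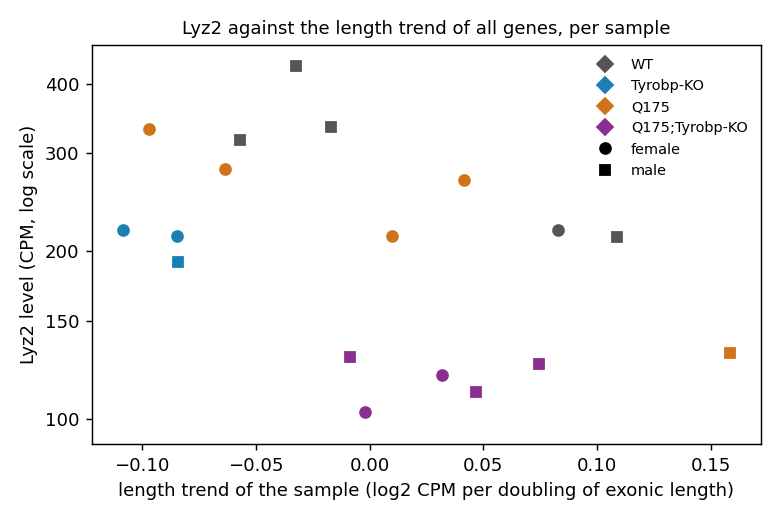
Lyz2 level in CPM (vertical axis, log scale) against the length trend of the library (horizontal axis, log2 CPM per doubling of exonic length), 1 point per sample, colour by group, circles for females and squares for males. WT and Q175 samples run from high Lyz2 at low trends to low Lyz2 at high trends, ending in Q175 replicate 9 at a trend of 0.158, and the Q175;Tyrobp-KO samples lie below them.

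Lyz2 was also set against the microglia markers of the same library. The geometric mean of the 12 markers was 1145 ± 172 CPM in WT, 1368 ± 289 in Tyrobp-KO, 1063 ± 267 in Q175 and 1287 ± 160 in Q175;Tyrobp-KO samples (SD). Over 18 samples, Pearson's r of the log2 marker level with Lyz2 was -0.41. The part of microglia yield in the Lyz2 level was not tested. Lyz2 per unit of this marker level was 0.278 ± 0.124 in WT, 0.247 ± 0.108 in Q175, 0.158 ± 0.0464 in Tyrobp-KO and 0.0928 ± 0.0155 in Q175;Tyrobp-KO samples. The order of the groups stayed the same, with 1 overlap between Q175 and Q175;Tyrobp-KO, where 24 of 25 pairs had the higher value in Q175. Scaled on these markers, the Lyz2 log2 fold change was -1.41 ± 0.29 (SE) in Q175;Tyrobp-KO against Q175, and the median of all genes moved to -0.37. In Tyrobp-KO against WT it was -0.82 ± 0.39, and the median of all genes moved to -0.29. Relative to these medians, Lyz2 was about as far below the other genes as with TMM factors.

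**Figure D4:**
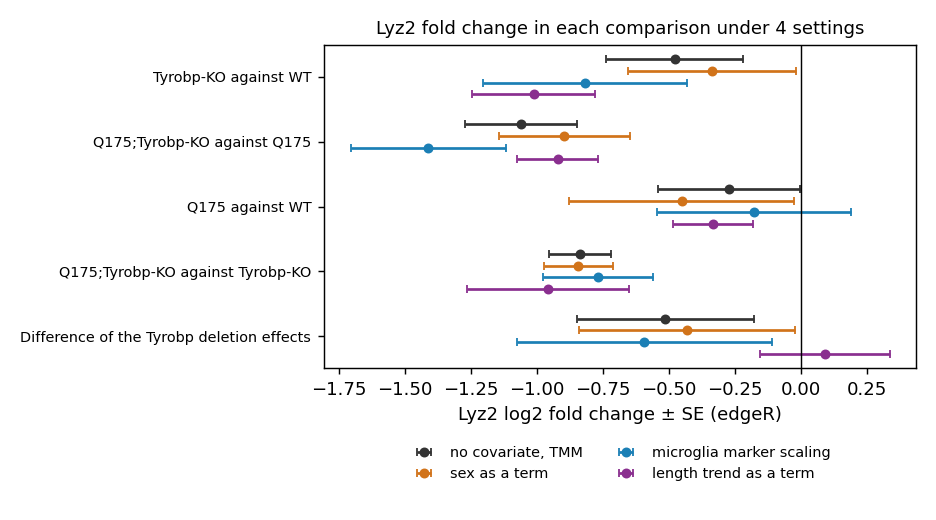
Lyz2 log2 fold change with its SE (horizontal axis) in each of 4 comparisons and for the difference of both Tyrobp effects (rows), under 4 settings of the edgeR fit (colours). All values lie below 0 except the difference of both effects with the length trend as a term, at 0.09.

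Markers of other myeloid cells were present at lower levels than those of microglia. Neutrophil markers summed to 115 to 537 CPM over 12 genes, most of it Csf3r, a receptor for a granulocyte growth factor (261.6 CPM on average). Among genes of neutrophil granules and cytoplasm, S100a8 ranged from 0.920 to 75.6 CPM, S100a9 from 0.541 to 57.6 and Ngp from 0 to 61.6, while Mpo was at 0 in all samples and Elane reached at most 0.043 CPM. Monocyte markers summed to 5.19 to 39.4 CPM over 8 genes in WT, 33.9 to 43.1 in Tyrobp-KO, 7.35 to 20.1 in Q175 and 10.99 to 32.4 in Q175;Tyrobp-KO samples. The 3 Tyrobp-KO samples were thus at the upper end for monocyte markers. Border-associated macrophage markers summed to 218 to 626 CPM over 10 genes, most of it Stab1 (345 CPM on average), and dendritic cell markers to 3.95 to 10.8 CPM over 4. Whether the RNA of Csf3r and Stab1 came from microglia was not tested. The neutrophil and border-associated macrophage sums are therefore not read as amounts of these cells.

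Over 18 samples, r of log2 Lyz2 with the log2 sum was -0.28 for neutrophils, 0.23 for monocytes, -0.38 for border-associated macrophages and 0.41 for dendritic cells. The sums of neutrophils and border-associated macrophages follow their most abundant gene, with r of -0.50 for Csf3r and -0.40 for Stab1. The r of these sums with Lyz2 is therefore not read as that of the cells. Among the other members, r with Lyz2 ran from -0.12 (Ltf) to 0.50 (Retnlg) for neutrophils. It ran from -0.17 (Siglec1) to 0.55 (Ms4a7) for border-associated macrophages. These genes were named after their values were seen.

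In Q175;Tyrobp-KO against Q175, 6 of 7 border-associated macrophage markers tested had a negative log2 fold change, with a median of -0.65 beside -0.05 for all genes. Cd163, a scavenger receptor, had -2.05 ± 0.74 (SE), Ms4a7 -1.35 ± 0.58, Mrc1, the mannose receptor, -0.65 ± 0.35 and Stab1 0.20 ± 0.23, none past edgeR's test. Negative values were also found for 2 of 3 dendritic cell, 8 of 8 oligodendrocyte, 9 of 10 astrocyte and 10 of 10 neuron markers. Positive ones were found for 9 of 10 neutrophil, 7 of 7 monocyte and 10 of 12 microglia markers. In Tyrobp-KO against WT, 7 of 7 border-associated macrophage, 10 of 10 astrocyte and 8 of 8 monocyte markers tested had positive values. So had 11 of 12 microglia, 9 of 10 neuron, 8 of 10 neutrophil, 5 of 8 oligodendrocyte and 2 of 3 dendritic cell markers, so positive values there were not particular to 1 cell type. No gene of these lists passed edgeR's test in either comparison, while DESeq2 called at least Aldoc, an astrocyte marker, in Tyrobp-KO against WT. The part of these cells in the Lyz2 level was not tested.

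Lyz1 was barely detected. In WT, replicates 1, 2, 6, 7 and 8 gave 7, 6, 2, 0 and 5 Lyz1 counts. In Tyrobp-KO, replicates 15, 19 and 20 gave 0, 1 and 4. In Q175, replicates 3, 4, 9, 14 and 17 gave 1, 2, 1, 5 and 3. A count was thus lacking in 1 WT and 1 Tyrobp-KO sample and in no Q175 sample. Of the Q175;Tyrobp-KO samples, replicate 11 gave 5 and replicates 5, 12, 13 and 16 gave 0. In all, 42 Lyz1 counts stood against 69847 of Lyz2, or 1663 Lyz2 counts per Lyz1 count. No sample exceeded 0.402 CPM, so that Lyz1 passed the filter of 1 CPM in no comparison. Only 6 of 18 samples had more than 3 counts, the level that a count of 0 still allows.

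The summed Lyz1 counts were 20 in WT (exact Poisson 95% interval 12.2 to 30.9), 5 in Tyrobp-KO (1.62 to 11.7), 12 in Q175 (6.20 to 20.96) and 5 in Q175;Tyrobp-KO (1.62 to 11.7). As a level, in CPM, this was 0.245 (0.150 to 0.379), 0.0915 (0.0297 to 0.213), 0.137 (0.0706 to 0.239) and 0.0457 (0.0148 to 0.107). The intervals of WT and Q175;Tyrobp-KO do not touch, but they cover counting error only, and all 5 counts of the latter group came from replicate 11. The reads came from amplified cDNA and carry no molecular identifiers, so that several may stem from 1 molecule.

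The Lyz1 share of both lysozymes asks whether the 2 genes changed in proportion. It was between 0 and 0.127% in WT, 0 and 0.124% in Tyrobp-KO, 0.0303% and 0.113% in Q175, and 0 and 0.172% in Q175;Tyrobp-KO samples. The highest share, in Q175;Tyrobp-KO replicate 11, had a Wilson 95% interval of 0.0734% to 0.401%. The 4 other samples of that group had no Lyz1 count, which allows shares of up to 0.0896% to 0.157% by the limit of 3 counts and of up to 0.115% to 0.200% by the Wilson interval that is plotted. Between Tyrobp-KO and WT the mean share differed by -0.031 percentage points (0.0491% against 0.0797%), and this difference was within the spread between samples (2-sided exact permutation test, p = 0.5, the smallest possible being 0.0357). How many of the Lyz1 counts came from reads of Lyz2, for instance within shared stretches such as exon 3, was not tested.

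**Figure D5:**
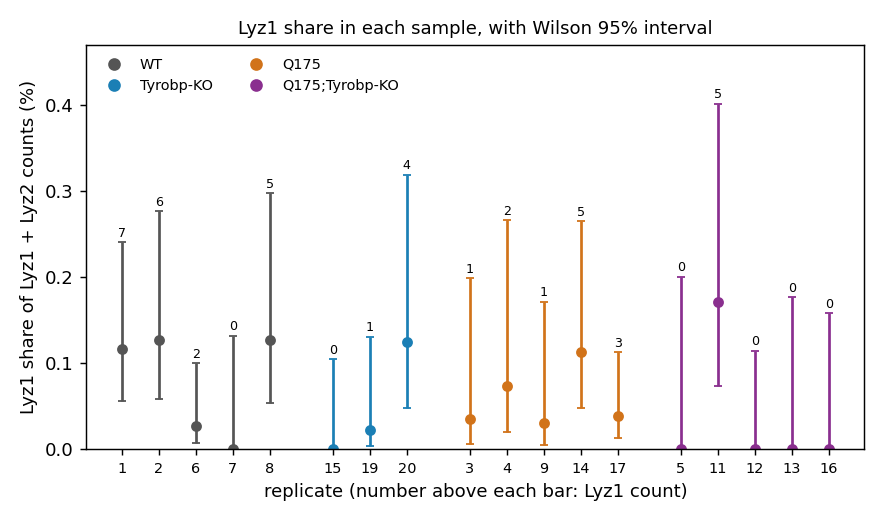
Share of Lyz1 in the summed Lyz1 and Lyz2 counts (vertical axis, percent) for each sample, by group and replicate, with its Wilson 95% interval and the Lyz1 count above it. No point exceeds 0.172%, and the intervals of all 18 samples overlap.

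Other genes of the lysozyme family were mostly silent. Of 10 genes on this list, Lyzl1, Lyzl6, Spaca3, Spaca5, Lalba and Lyg1 had no count in any sample and Lyg2 in all but 1. Besides Lyz2, only Lyzl4, a lysozyme-like gene known from testis, passed the filter, at a mean of 6.18 CPM, or 4.41 CPM per kilobase against 167 for Lyz2. Lyzl4 was lowest in WT replicate 6 (0.949 CPM), the sample with the most Lyz2, and highest in WT replicate 7 (12.5 CPM). Its log2 fold change was -0.10 ± 0.61 (SE) in Tyrobp-KO against WT and 0.21 ± 0.24 in Q175;Tyrobp-KO against Q175, neither past the test (edgeR adjusted p = 0.999 and 0.681).

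Peptidoglycan freed by lysozyme is sensed by NOD1, NOD2, NLRP3 and TLR2 pathways and carried by SLC15 and SLC46 transporters. Of 13 genes on this list, 12 were tested and none passed edgeR's test in any comparison. The list's median log2 fold change was -0.03 in Tyrobp-KO against WT and 0.03 in Q175;Tyrobp-KO against Q175, beside 0.02 and -0.05 for all genes tested. Tlr2, a receptor for bacterial lipoproteins, was the member whose level went most with Lyz2 (r = 0.77 over 18 samples). Tlr2 was 90.4 to 146 CPM in WT, 52.0 to 89.0 in Tyrobp-KO, 64.1 to 114 in Q175 and 53.8 to 76.1 CPM in Q175;Tyrobp-KO samples. Its log2 fold change was -0.67 ± 0.24 (SE) in Tyrobp-KO against WT (edgeR adjusted p = 0.61) and -0.44 ± 0.17 in Q175;Tyrobp-KO against Q175 (adjusted p = 0.533). The other 3 of the 4 most abundant members, Xiap, an inhibitor of caspases that also acts in NOD2 signalling, Slc15a4, a peptide transporter of endolysosomes, and Nlrp3, the inflammasome sensor, had log2 fold changes between -0.15 and 0.49 in these 2 comparisons.

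Other antimicrobial effectors passed no test. Of 11 genes, 9 were tested in Tyrobp-KO against WT, and none passed edgeR's test in any comparison. Mpeg1, the pore-forming perforin-2 of macrophages, was the most abundant, at 1860 ± 424 CPM in WT, 1657 ± 516 in Tyrobp-KO, 1376 ± 322 in Q175 and 1623 ± 175.4 in Q175;Tyrobp-KO samples (SD). Its log2 fold change in Q175;Tyrobp-KO against Q175 was 0.24 ± 0.18 (SE, edgeR adjusted p = 0.574). Slc11a1, the metal transporter NRAMP1 of phagosomes, and Ang, an angiogenin ribonuclease, had 0.22 ± 0.23 and 0.22 ± 0.15 there. Ltf, the lactoferrin of neutrophil granules, was 2.10 to 37.3 CPM in Tyrobp-KO and 0 to 6.45 CPM in WT, without passing (adjusted p = 0.61). The list's median was 0.27 in Q175;Tyrobp-KO against Q175, beside -0.05 for all genes.

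Transcription factors of the myeloid lineage passed no test either. Of 9 factors, 8 were tested, with none past edgeR's test in any comparison. In Q175;Tyrobp-KO against Q175, 7 of 8 had a positive log2 fold change, with a median of 0.37, against -0.05 for all genes. The microglia markers went the same way there, with 10 of 12 positive and a median of 0.28. Spi1, which encodes PU.1, had 0.40 ± 0.26 (SE), Cebpa 0.36 ± 0.26, Runx1 0.50 ± 0.26 and Irf8 0.38 ± 0.25. Over 18 samples, the levels of Spi1, Runx1 and Irf8 ran against that of Lyz2 (r = -0.54, -0.60 and -0.51). Over the list of 9, r lay between -0.62 (Elf4) and 0.61 (Gabpa), the only positive value. Over the 12 microglia markers, it lay between -0.68 and 0.69, so negative values are not particular to these factors. Irf8, a factor needed for microglia, was the most abundant of the list, at 281 CPM on average.

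Disease-associated microglia genes, a set that depends in part on TREM2 and TYROBP, held 2 of the 4 genes that passed in Tyrobp-KO against WT. Of 21 genes, 2 passed as lower in Tyrobp-KO against WT. Clec7a, the receptor Dectin-1 for fungal glucans, had 62.6 to 113 CPM in WT and 11.2 to 15.8 CPM in Tyrobp-KO samples, a log2 fold change of -2.50 ± 0.28 (SE, edgeR adjusted p = 0.0213). Spp1, which encodes osteopontin, had 18.02 to 88.0 CPM in WT and 0.474 to 0.637 CPM in Tyrobp-KO samples, a log2 fold change of -6.58 ± 0.58 (adjusted p = 0.00406). Both differences are several times that of Lyz2. In this comparison 12 of the 21 had a negative and 9 a positive log2 fold change. At an unadjusted p under 0.05, 7 of 21 were lower, as were 3.15% of all genes, and Fth1, the ferritin heavy chain gene, was higher (0.93 ± 0.39, unadjusted p = 0.0362 by edgeR). In Q175;Tyrobp-KO against Q175 none of the 21 passed in the main edgeR fit. Of these genes, 17 had a negative log2 fold change, and the median was -0.60 beside -0.05 for all genes. Unadjusted p was under 0.05 and the value lower for 11 of 21, as for 4.56% of all genes. Other settings did call members here: DESeq2 at least Clec7a, Cst7 and Csf1, and edgeR with 1 fit over all 4 groups Clec7a, Cst7 and Spp1. The study also named Clec7a and Spp1 as decreased. In the same comparison, the median was -0.53 for 10 neuron, -0.34 for 8 oligodendrocyte, -0.24 for 10 astrocyte and -0.65 for 7 border-associated macrophage markers, whose part in the list's values was not tested. Clec7a had 24.5 to 117 CPM in Q175 and 8.74 to 26.0 CPM in Q175;Tyrobp-KO samples, a log2 fold change of -2.10 ± 0.44 (SE, edgeR adjusted p = 0.392), and Spp1 6.32 to 155 and 0.212 to 3.88 CPM, a log2 fold change of -5.72 ± 1.051 (adjusted p = 0.298). The most abundant members, Ctsd and Ctsb, which encode the lysosomal proteases cathepsin D and B, stood at 0.02 ± 0.26 and 0.01 ± 0.21, and B2m and Cd9 at -0.53 ± 0.24 and -0.64 ± 0.20.

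Among 16088 other genes with a mean of at least 1 CPM, those whose log2 levels went most with Lyz2 over the 18 samples were Cd63 (r = 0.91), Kcnj2 (0.88), Pmaip1 (0.88), C3ar1 (0.88) and Ctsl (0.88). CD63 is a tetraspanin of late endosomes and lysosomes, C3AR1 the receptor for complement C3a, and CTSL a lysosomal protease. Cd63 is also on the list of disease-associated genes. It was 65.4 to 150 CPM in WT, 69.9 to 120 in Tyrobp-KO, 57.1 to 117 in Q175 and 54.6 to 67.2 CPM in Q175;Tyrobp-KO samples. Cd63 thus was lowest in the same group as Lyz2 but overlapped Q175, through replicate 9, and WT, through replicate 8.

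When group means were subtracted first, so that differences between genotypes no longer count, other genes led. They were Tgoln1 (r = 0.96), Tmem59 (0.95), Nras (0.95), Arf4 (0.94) and H3f3a (0.93). None of these 5 is among the 5 above. Tgoln1 is a membrane protein of the trans-Golgi network, Nras a small GTPase and Arf4 a regulator of vesicle traffic, none of them myeloid-specific. Tgoln1 averaged 218 CPM in WT, 224 in Tyrobp-KO, 213 in Q175 and 176 in Q175;Tyrobp-KO samples, a narrower range than that of Lyz2. All of these correlations rest on the same 18 libraries, which differ in length trend as described above.

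Tyrobp itself had r = 0.79 with Lyz2 over the 18 samples, the 60th of 16088 genes, and Spearman's rho of 0.94, the highest of all. Tyrobp was deleted by design in the Tyrobp-KO and Q175;Tyrobp-KO samples, and Lyz2 was chosen as lower in Q175;Tyrobp-KO. High values over all 18 samples were thus partly set in advance. With group means subtracted, r was 0.79 and Tyrobp was the 784th of 16088 genes. In the 10 WT and Q175 samples, where the gene is intact, r was 0.87 and Spearman's rho 0.96. In these samples WT replicate 6 was highest for both genes, at 430.4 CPM of Lyz2 and 475 CPM of Tyrobp. The length trend had r = -0.83 with Lyz2 over the same 10 samples, and Tyrobp, at 667 bases of exon, is shorter still than Lyz2.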

How the data were processed

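Gene counts of 18 samples of CD11b-enriched striatal cells were used as deposited. Per the labels, cells of 2 striata were pooled per sample, while the study's methods name 1, and libraries were made with the SMART-Seq v4 kit, which does not mark strand. The authors used STAR for alignment and featureCounts to assign reads to genes. Their methods name GRCm38 and a UCSC gene model, the submitters' processing notes name GRCh38, and all 55536 identifiers of the table were matched to GENCODE M21, whose GRCm38 coordinates are given. Neither the counting strand nor the treatment of reads shared by paralogs is given in the sources used here, so Lyz1 and Lyz2 counts are uncertain to that extent. Samples were grouped by the genotype in the labels, and 2 columns of per-sample values that matched no sample were not used.

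Levels are CPM with TMM factors (edgeR 4.0.16, R 4.3.3). Log2 levels used a prior count of 2. Each comparison was fitted on its own groups with edgeR's quasi-likelihood test, on genes that reached 1 CPM in 1 or more of its samples, with Benjamini-Hochberg adjustment over all genes tested and an FDR of 0.1. The difference of the Tyrobp effects was fitted over all 4 groups. Fold changes are those of the fit, and group means and SDs are of CPM. The SE of a fold change was derived from the test, as the absolute log2 fold change divided by the square root of its F statistic. The Lyz1 share was tested with an exact permutation test (SciPy 1.17.1), and intervals are Wilson intervals for shares and exact Poisson intervals for counts, at 95%. Intervals and the limits that a count of 0 allows, set at 3 counts, cover counting error only. The edgeR fit was tested on simulated data for Tyrobp-KO against WT only. The changes put in were all larger than that of Lyz2 there, and no length trend or sex difference was simulated, so it does not bear on those.

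Alternatives were DESeq2 1.42.0, its size factors, total counts, scaling on microglia markers, other filters, summed paralogs, sex as a term, 1 fit over all groups, and each sample left out in turn. The length trend as a term was added after the data had been seen. Genes named are the members of 5 pathway lists that passed or were the 4 most abundant, and the 5 genes most like Lyz2 by Pearson's r, with and without subtracting group means, among genes with a mean of at least 1 CPM. Tlr2 is one of the 4 most abundant of its list. Ltf, Lyzl4 and the absent lysozyme genes are named to account for the members of their lists, after their values were seen. So were single markers of other cell types, Fth1, Elf4, Gabpa, Cst7 and Csf1. The members and lists were chosen with earlier results of these data known.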

Additional observations from a re-analysis of the deposited data

Results flagged for a closer look

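Lyz1 in Q175;Tyrobp-KO replicate 11 stood apart from its group. This sample had 5 Lyz1 counts, or 0.216 CPM, and a Lyz1 share of 0.172% of both lysozymes, while the 4 other samples of the group had none. Among 21 groups of 5 samples checked over 7 quantities, these were the only 2 in which 1 sample lay that far from the rest. The rule sets the gap to the nearest sample against the range of the group. With no count in 4 samples, it flags any count in the remaining sample. A chance rate of about 1 in 20 therefore does not apply here, and the 21 groups share samples between quantities. Both Lyz1 values rest on the same 5 counts.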

How the results depend on the processing

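The Lyz2 log2 fold change kept its sign under all 18 alternatives in Tyrobp-KO against WT, 20 in Q175;Tyrobp-KO against Q175, 20 in Q175 against WT and 18 in Q175;Tyrobp-KO against Tyrobp-KO. In Tyrobp-KO against WT its adjusted p lay between 0.255 and 0.999, so that it passed under none. The difference of both Tyrobp effects was negative under 26 of 27 alternatives and positive, at 0.092 ± 0.24 (SE), with the length trend as a term, a fit added after the data had been seen. When 1 sample was left out, the Lyz2 value lay between -0.58 (without WT replicate 7) and -0.32 (without WT replicate 6) in Tyrobp-KO against WT, between -1.22 (without Q175 replicate 9) and -0.93 (without Q175 replicate 17) in Q175;Tyrobp-KO against Q175, between -0.45 and -0.12 in Q175 against WT, between -0.87 and -0.77 in Q175;Tyrobp-KO against Tyrobp-KO, and between -0.67 and -0.38 for the difference. The Lyz1 share kept its direction under 10 alternatives, with a difference between -0.068 and -0.006 percentage points when 1 sample was left out.

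The number of genes passing depended on the tool. In Tyrobp-KO against WT it was 4 with edgeR, 168 with DESeq2, 15 with no filter, 8 with 1 fit over all groups, and 2 to 8 when 1 sample was left out, the 8 being without WT replicate 6. In Q175;Tyrobp-KO against Q175 it was 2 with edgeR, 41 with DESeq2, 9 with no filter, 15 with 1 fit over all groups, 1 with sex as a term, and 1 to 5 when 1 sample was left out, the 5 being without Q175 replicate 9. DESeq2 called 234 genes in Q175 against WT, 680 in Q175;Tyrobp-KO against Tyrobp-KO and 2 for the difference, where edgeR called 0. By Spearman's rho, 1 of the 5 genes most like Lyz2 was shared with Pearson's r, and 1 of 5 after group means were subtracted. No paired analysis was possible because the groups share no replicate number. Depth limits Lyz1, which no setting with a filter on low counts could test. With no filter, its log2 fold change in Tyrobp-KO against WT was -1.18 ± 1.26 (SE, edgeR adjusted p = 0.828).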
